A study of Mus musculus with 4 samples.

Results

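The genes of the mitochondrial ATP synthase and of the mitochondrial carrier family were followed in kidney tubules of mice on a low or a high magnesium diet. Members were all genes whose symbol in the platform annotation starts with Atp5 or Slc25a. There were 58 of them, 16 Atp5 and 42 Slc25a genes, among 21757 genes with a symbol, and they were read by 85 of 39429 probes. Each gene is given by its brightest probe. RefSeq lists 3 of them under newer symbols, namely Atp5f1 as Atp5pb, Atp5s as Dmac2l and Atp5sl as Dmac2.

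The study set 8 RNA samples against each other on 4 arrays read in 2 colours, and its aim was to find genes of the distal convoluted tubule that take part in magnesium balance. All mice carried a PV-eGFP transgene, in which the parvalbumin promoter drives a green fluorescent protein, on a B6D2F2 background, and their age at tubule isolation was 6 to 8 weeks. One group ate a diet with 0.02% magnesium by weight and the other a diet with 0.48%, both for 15 days. Fluorescent tubule fragments were sorted, and RNA of 4000 fragments was pooled per extraction, so each value is a mean over many fragments, and fewer cells of a type and less RNA per cell cannot be told apart. Littermates on the opposite diets were hybridised together on 1 array. The pairs are called H1/L1, H7/L7, H3/L2 and H8/L8 after the sample numbers. The low-diet sample was labelled with Cy5 in H1/L1 and H7/L7 and with Cy3 in H3/L2 and H8/L8. Whether a sample came from 1 mouse is not stated, so the unit of replication is the pair. The fit has a term for the dye. Its p-values therefore rest on the spread between pairs with the same labelling, drawn towards the spread typical of all probes. The printed SDs over all 4 pairs do not measure this. Every value below is a log2 ratio of the low over the high diet unless it is called a brightness, which is the mean log2 intensity of both channels over the 4 arrays.

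ATP synthase is the rotary enzyme of the inner mitochondrial membrane. Protons flow back through its membrane part, Fo, turn a ring of c subunits and drive ATP formation in the catalytic head, F1, while a peripheral stalk keeps the head from turning. The carriers of the Slc25a family sit mostly in the same membrane and move ADP, ATP, phosphate, citric acid cycle intermediates, amino acids, cofactors and iron across it. The distal convoluted tubule is rich in mitochondria, which supply ATP to the sodium pump of this segment.

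Transcripts of the labelled segment were detected in the sorted fragments. All 8 distal convoluted tubule markers, among them Slc12a3 and Pvalb, were above background in all 8 samples, and 3 of them passed the test as higher on the low diet. Between 65.47% and 97.41% of all probes were above background in each sample, so this cut alone does not tell segments apart. Every measured marker of intercalated cells, podocytes, endothelium and leukocytes was above background in all samples as well. The distal convoluted tubule markers summed to 37000 to 42600 intensity units on the low diet and to 12000 to 16800 on the high diet. The 3 that passed were Pvalb, Trpm6 and Calb1. Pvalb and Calb1, the brightest of the 8, had mean log2 ratios of 2.27 and 1.54. The markers that did not pass had means between -0.18 (Klhl3) and 0.22 (Wnk4), with Slc12a3 at 0.13. Whether the sums reflect more distal tubule material was not tested. Of 12 proximal tubule markers, 11 were above background in every sample and 2 passed as lower, with summed levels of 3670 to 4830 on the low diet and 4610 to 10600 on the high diet. Median log2 ratios of the proximal markers were -1.07 in H1/L1 and -0.81 in H3/L2 but -0.17 in both H7/L7 and H8/L8. The 6 markers of the thick ascending limb, the segment just upstream, were above background in all samples too. Their summed levels were 69600 to 95700 on the low and 28200 to 51400 on the high diet. Umod (mean 1.455) and Kcnj1 (0.66), the brightest of the 6, passed as higher, and Ptger3 (-1.95) as lower. Kcnj1 had ratios of 0.97 in H1/L1 and 1.31 in H7/L7 but 0.23 in H3/L2 and 0.13 in H8/L8. Slc12a1 (0.17), Cldn10 (0.09) and Cldn16 (0.01) did not pass. Principal cell markers summed to 18400 to 46600 on the low and 30200 to 49400 on the high diet, nearly all of it from Avpr2. The others had means between -0.04 (Scnn1g) and 0.06 (Aqp3) and did not pass. Avpr2, the brightest of these 6 markers, passed as lower, but its spots reached saturation on the low diet in 1 sample and on the high diet in 2, and its ratios were 0.49 in H1/L1 and 0.63 in H7/L7 against -1.28 in H3/L2 and -1.38 in H8/L8, so it is not read as a difference. The part of these marker shifts in the results below was not tested.

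Most members were detected. All 16 Atp5 genes and 34 of the 42 carriers were above background in all 8 samples, a cut that 65.47% to 97.41% of all probes passed in each sample. ATP synthase genes were among the brightest on the array, with 13 of 16 in the brightest 10% of genes and a median brightness of 14.04, against 7.89 for the carriers and 7.34 for all genes. Saturated spots were found for 3 Atp5 genes and for 0 carriers.

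A share of the ATP synthase genes was lower on the low magnesium diet. By limma's test, with Benjamini-Hochberg adjustment over all probes at 0.05, 6 of the 16 Atp5 genes passed as lower and 0 as higher. Among all genes, 2.95% passed as lower and 4.87% as higher, and among the brightest 10% of genes, to which most Atp5 genes belong, 10.4% passed as lower and 13.2% as higher. The median log2 ratio of the 16 genes was -0.23, against 0.0017 for all genes. The genes that passed as lower were Atp5g1, Atp5j2, Atp5k, Atp5e, Atp5f1 and Atp5b. Only the first 4 of these had the same sign in all 4 pairs. Atp5f1 and Atp5b lay above 0 in the pairs with the low diet in Cy5 and below 0 in the others. Leaving out pair H1/L1, H7/L7 or H8/L8 left 0 Atp5 genes past the threshold, and leaving out H3/L2 left 4 (Atp5f1, Atp5g1, Atp5j2 and Atp5k). With plain subtraction of the background 0 passed, with scaling between arrays 0, and without a dye term 2 did (Atp5e and Atp5g1). The median stayed below 0 under all 14 alternatives.

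**Figure D1:**
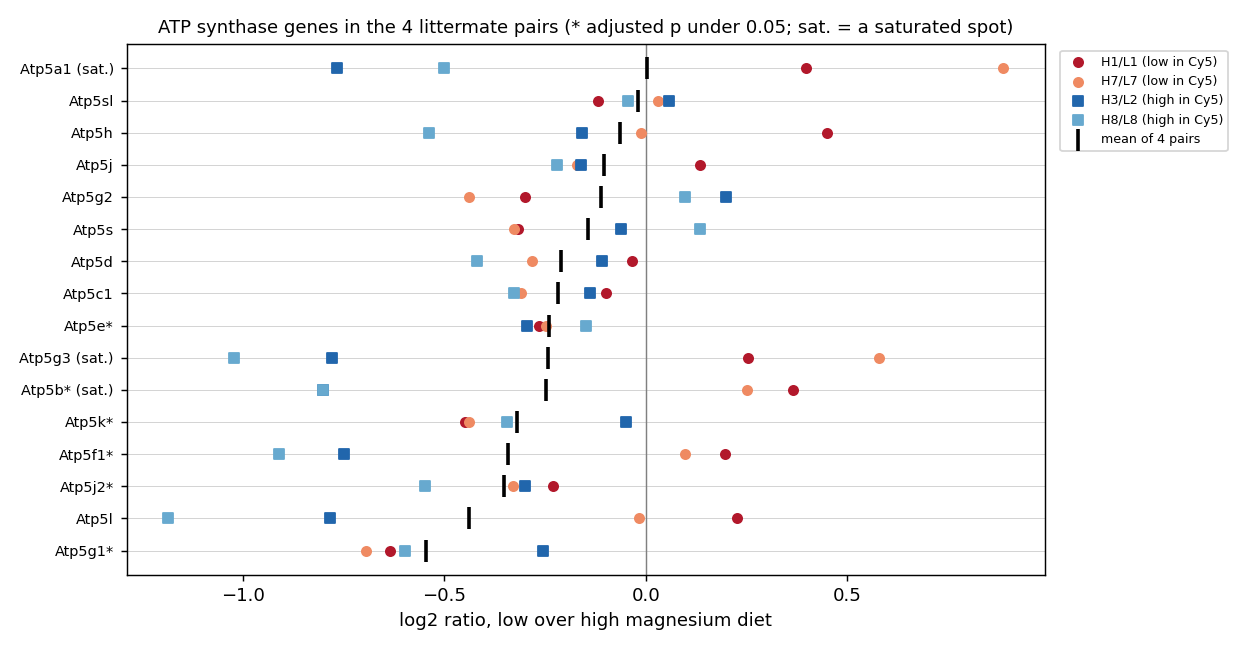
Log2 ratio of the low over the high magnesium diet (horizontal axis) for the 16 ATP synthase genes. Circles are the pairs with the low diet in Cy5, squares those with the high diet in Cy5, and bars the mean of the 4 pairs (sat. marks genes with a saturated spot, and equal points overlap). Atp5e, Atp5g1, Atp5j2 and Atp5k lie below 0 in every pair, while circles and squares of Atp5b, Atp5f1 and Atp5g3 lie on opposite sides of 0.

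In the c ring, which turns with the proton flow, Atp5g1 had log2 ratios of -0.63 in H1/L1, -0.70 in H7/L7, -0.26 in H3/L2 and -0.60 in H8/L8. It was lower on the low diet in all 4 pairs. Its mean was -0.55 ± 0.20 (SD, n = 4; 1.46-fold lower; limma, adjusted p = 0.0231). This gene had 4 probes that did not agree, since a second probe of nearly the same brightness (14.03 against 14.07) had a mean log2 ratio of 0.06 and the others of -0.20 and 0.02, none of which passed. The fall of Atp5g1 therefore rests on 1 probe. Atp5g2, which encodes the same mature c subunit from another gene, had ratios of -0.30, -0.44, 0.20 and 0.10 in the same order of pairs and did not pass (adjusted p = 0.202). The 2 pairs with the low diet in Cy5 lay below 0 and the 2 others above it.

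In the membrane part, Atp5j2 and Atp5k, which encode the small subunits f and e, both fell. The ratios of Atp5j2 were -0.23 in H1/L1, -0.33 in H7/L7, -0.30 in H3/L2 and -0.55 in H8/L8, with a mean of -0.35 ± 0.14 (SD, n = 4; limma, adjusted p = 0.0345). Those of Atp5k were -0.45, -0.44, -0.05 and -0.34 (mean -0.32 ± 0.19; adjusted p = 0.0475). Both genes were below 0 in all pairs, and the second Atp5k probe had a mean of -0.29 with an adjusted p of 0.0517. Atp5l, which encodes subunit g, had 6 probes, all with a mean below 0, from -0.44 to -0.28. Its brightest probe had ratios of 0.23 in H1/L1, -0.02 in H7/L7, -0.78 in H3/L2 and -1.19 in H8/L8 (SD 0.66) and did not pass (limma, adjusted p = 0.0554). The dimmer probes passed in 4 cases, 2 of them with opposite signs in the 2 orientations.

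In the catalytic head, Atp5e, the small epsilon subunit of the central stalk, showed the narrowest spread of the family. Its ratios were -0.27 in H1/L1, -0.25 in H7/L7, -0.30 in H3/L2 and -0.15 in H8/L8 (mean -0.24 ± 0.06, SD, n = 4; 1.18-fold lower; limma, adjusted p = 0.0365). The gamma subunit gene Atp5c1 and the delta subunit gene Atp5d, which complete the central stalk, were below 0 in all 4 pairs as well, at means of -0.22 ± 0.12 and -0.21 ± 0.17, but did not pass (adjusted p = 0.0977 and 0.180). A dimmer Atp5c1 probe passed as lower at -0.22. In all, 6 of 16 Atp5 genes lay below 0 in all 4 pairs and 0 above, where 12.2% of all genes lay below 0 in every pair and 15.4% above. Among the 2176 brightest genes, which include 13 of the Atp5 genes, 419 lay below 0 in every pair and 510 above. Of these 13 Atp5 genes, 4 lay below 0 in every pair and 0 above.

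The catalytic beta subunit gene Atp5b passed, but its 4 ratios did not share a sign. They were 0.37 in H1/L1 and 0.25 in H7/L7 against -0.80 in H3/L2 and -0.80 in H8/L8 (mean -0.25 ± 0.64, SD, n = 4; limma, adjusted p = 0.0292). The fit takes the difference between the orientations as a dye effect. This call thus rests on the agreement within each orientation, with the spread drawn towards that of all probes. A spot of Atp5b was saturated in 1 high-diet sample, and with saturated spots set to missing the gene did not pass, at the same mean log2 ratio of -0.25 (limma, adjusted p = 0.0752). The alpha subunit gene Atp5a1 was saturated in Cy5 on all 4 arrays, with mean signals of 64578 to 65016 units, so its ratios are only limits, at least 0.40 and 0.89 in H1/L1 and H7/L7 and at most -0.77 and -0.50 in H3/L2 and H8/L8. The third c ring gene, Atp5g3, reached saturation on the low diet in 1 sample and on the high diet in 2, and the mean of either gene is not read as a difference.

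The peripheral stalk gave a mixed picture. Atp5f1, which encodes subunit b, passed as lower, with ratios of 0.20 in H1/L1, 0.10 in H7/L7, -0.75 in H3/L2 and -0.91 in H8/L8 (mean -0.34 ± 0.57, SD, n = 4; limma, adjusted p = 0.0251). As for Atp5b, the orientations lay on opposite sides of 0. A second, slightly dimmer Atp5f1 probe also passed, at -0.31 ± 0.22. Atp5h, subunit d, and Atp5j, coupling factor F6, had means of -0.06 ± 0.41 and -0.10 ± 0.16 and did not pass (adjusted p = 0.796 and 0.402). Neither did Atp5s and Atp5sl, which are not subunits of the purified enzyme, at -0.14 ± 0.22 and -0.02 ± 0.08.

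The sequences just before the start of 5 members are shown, picked from the genes that were lower (here Atp5k, Atp5e, Slc25a28) or higher (here Slc25a17, Slc25a42) in every pair. Each run is the 250 bases before the RefSeq start (GRCm38.p6, all on the minus strand), at chr5:108434400-108434649 for Atp5k, chr2:174464102-174464351 for Atp5e, chr15:81360766-81361015 for Slc25a17, chr8:70212282-70212531 for Slc25a42 and chr19:43674882-43675131 for Slc25a28. Capitals mark matches on either strand to the palindromic core of NRF1 (a factor known for respiratory genes), CCGGAAG (an ETS core, as bound by GABP), AAGGTCA (half-site of the estrogen-related receptors) or GGGCGG (a GC box, bound by Sp1).
Atp5k: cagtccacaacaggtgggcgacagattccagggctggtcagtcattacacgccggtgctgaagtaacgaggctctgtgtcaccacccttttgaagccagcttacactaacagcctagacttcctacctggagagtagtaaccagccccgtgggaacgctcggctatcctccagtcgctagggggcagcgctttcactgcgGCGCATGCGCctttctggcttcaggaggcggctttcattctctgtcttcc
Atp5e: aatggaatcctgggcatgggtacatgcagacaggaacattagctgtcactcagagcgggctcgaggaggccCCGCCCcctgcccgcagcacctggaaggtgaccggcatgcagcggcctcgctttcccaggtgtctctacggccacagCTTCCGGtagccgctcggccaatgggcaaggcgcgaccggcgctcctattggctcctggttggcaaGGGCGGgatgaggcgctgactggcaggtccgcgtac
Slc25a17: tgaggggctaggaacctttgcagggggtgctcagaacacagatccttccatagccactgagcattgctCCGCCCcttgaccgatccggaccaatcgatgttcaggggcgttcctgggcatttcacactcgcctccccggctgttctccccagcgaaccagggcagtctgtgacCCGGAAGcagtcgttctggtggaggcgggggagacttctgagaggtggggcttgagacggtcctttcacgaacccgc
Slc25a42: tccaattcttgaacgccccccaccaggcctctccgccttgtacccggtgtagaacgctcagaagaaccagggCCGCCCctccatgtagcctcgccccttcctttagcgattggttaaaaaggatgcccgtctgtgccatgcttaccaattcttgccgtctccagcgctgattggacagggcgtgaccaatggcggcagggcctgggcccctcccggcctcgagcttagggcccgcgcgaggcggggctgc
Slc25a28: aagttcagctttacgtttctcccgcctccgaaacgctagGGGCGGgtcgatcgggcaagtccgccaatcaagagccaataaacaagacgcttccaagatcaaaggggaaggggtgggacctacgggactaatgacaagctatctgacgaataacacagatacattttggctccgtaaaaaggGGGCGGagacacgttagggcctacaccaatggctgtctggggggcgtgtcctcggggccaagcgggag

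In these runs Atp5k held the NRF1 core 50 bases before the start, Atp5e and Slc25a17 held the ETS core 102 and 77 bases before it, and Slc25a42 and Slc25a28 held GC boxes alone. The RefSeq table held 61 promoters of 48 members. The NRF1 core was in 4 of 19 Atp5 promoters (21.1%) and 2 of 42 carrier promoters (4.76%), against 4.98% of all 32851 promoters in the table. The ETS core was in 21.1% and 11.9%, against 6.91%, and the estrogen-related half-site in 10.5% and 2.38%, against 4.08%. The GC box was in 26.3% of Atp5 and 69% of carrier promoters, against 32.7% of all. Among promoters of members that passed as lower, the NRF1 core was in 1 of 10 (Atp5k) and the ETS core in 1 of 10 (Atp5e). Among those of members that passed as higher, the NRF1 core was in 0 of 4 and the ETS core in 1 of 4 (Slc25a17). The sequences shown are thus not typical of the members that passed. A match is only a run of letters and says nothing of binding.

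The carriers moved in both directions. Of the 42 genes 6 rose and 4 fell (limma, adjusted p under 0.05), which is 10 in all where 7.82% of all genes passed. Their median log2 ratio was 0.0010, with pair medians of 0.02 in H1/L1, 0.0043 in H7/L7, 0.03 in H3/L2 and 0.0022 in H8/L8. All 10 had the same sign in all 4 pairs, and all 10 were brighter than the median of all genes. Of the 16 carriers dimmer than that, 0 passed in limma, with an unadjusted p under 0.05 for 1 (Slc25a29). Without pair H1/L1, H8/L8, H7/L7 or H3/L2 the number of carriers past the threshold was 0, 1, 4 and 6. It was 1 with plain background subtraction (Slc25a28), 0 with scaling between arrays and 5 without a dye term.

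**Figure D2:**
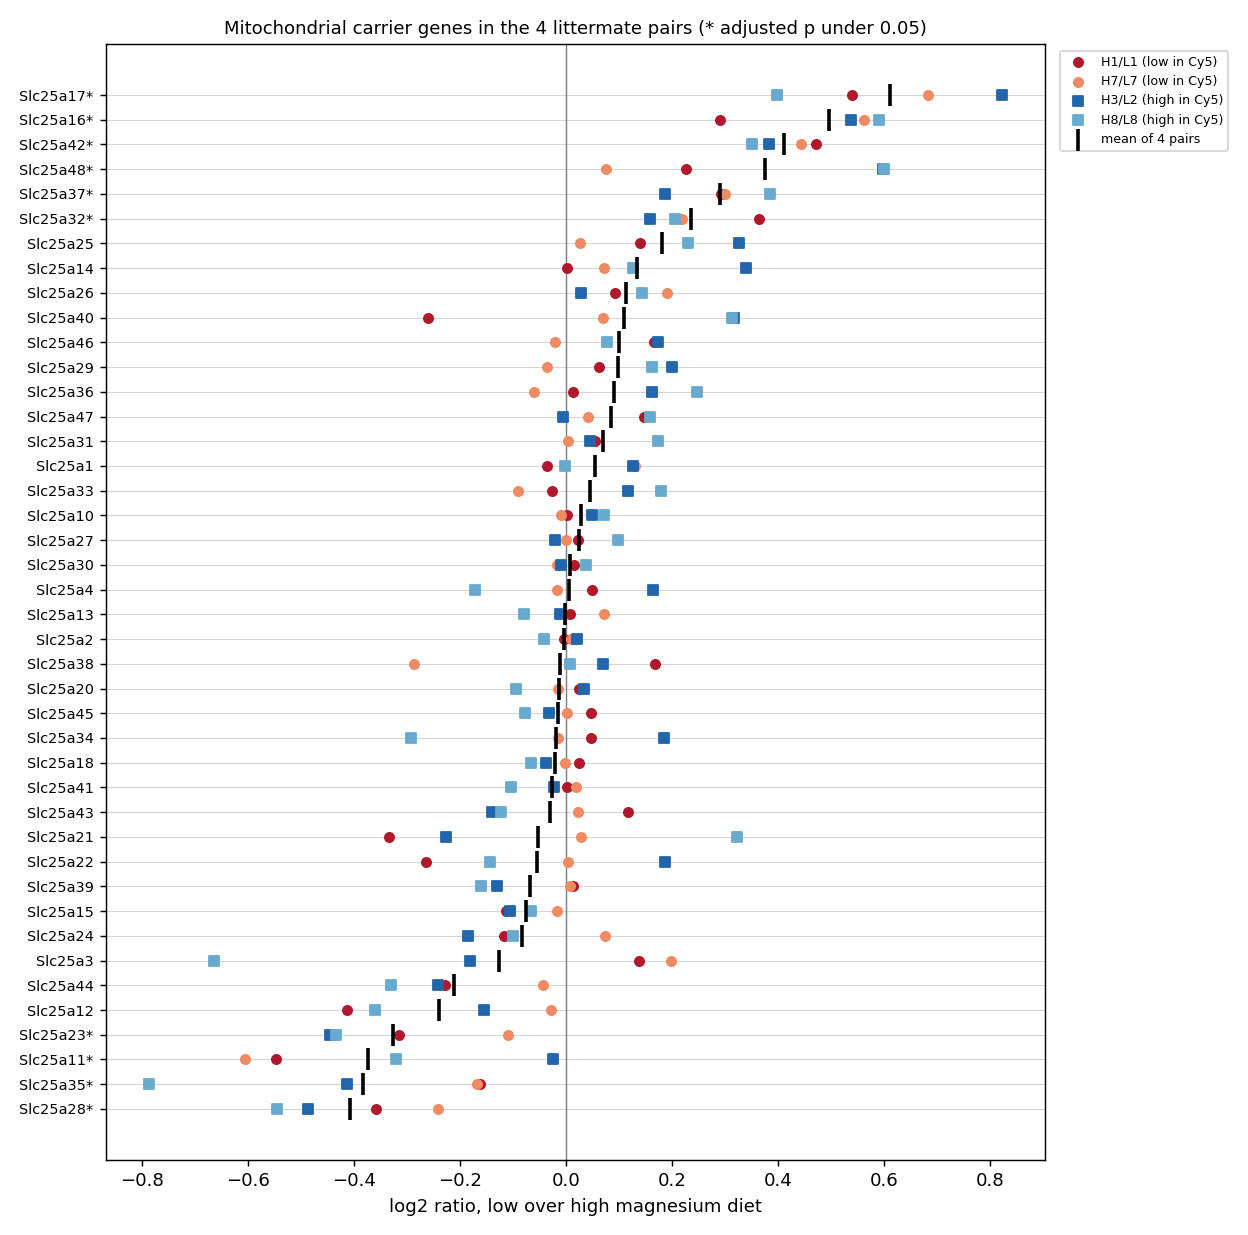
Log2 ratio of the low over the high magnesium diet (horizontal axis) for the 42 carrier genes, ordered by their mean (bars). Circles are pairs with the low diet in Cy5 and squares pairs with the high diet in Cy5, and points of nearly equal value overlap. The 6 genes that rose (top) and the 4 that fell (bottom) keep 1 side of 0 in all 4 pairs.

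Carriers of cofactors and nucleotides included 4 genes of 7 that rose, where 4.87% of all genes did, and 0 that fell. All 7 had a mean above 0, as had 11122 of all 21757 genes, and their median was 0.24. Slc25a17, which carries coenzyme A and nucleotide cofactors into peroxisomes, rose most. Its ratios were 0.54 in H1/L1, 0.68 in H7/L7, 0.82 in H3/L2 and 0.40 in H8/L8 (mean 0.61 ± 0.18, SD, n = 4; 1.53-fold; limma, adjusted p = 0.0281). It was also the brightest carrier that changed, at 13.07. Slc25a16, a relative of the yeast mitochondrial coenzyme A transporter, had ratios of 0.29, 0.56, 0.54 and 0.59 in the same order (mean 0.50 ± 0.14; 1.41-fold; adjusted p = 0.0206). Slc25a42, which exchanges coenzyme A for adenine nucleotides across the inner membrane, had ratios of 0.47, 0.44, 0.38 and 0.35 (mean 0.41 ± 0.06; 1.33-fold; adjusted p = 0.0126). The 4 pairs of Slc25a42 thus lay within 0.35 and 0.47. Slc25a32, the folate and FAD carrier, had ratios of 0.36, 0.22, 0.16 and 0.21 and rose by 0.24 ± 0.09 (adjusted p = 0.0382). The S-adenosylmethionine carrier Slc25a26 (0.11 ± 0.07) and the pyrimidine nucleotide carriers Slc25a36 (0.09 ± 0.14) and Slc25a33 (0.04 ± 0.12) did not pass.

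The 2 mitoferrins, which bring iron into mitochondria, moved in opposite directions. Slc25a28, mitoferrin-2, fell, with ratios of -0.36 in H1/L1, -0.24 in H7/L7, -0.49 in H3/L2 and -0.55 in H8/L8 (mean -0.41 ± 0.14, SD, n = 4; 1.33-fold lower; limma, adjusted p = 0.0156). It was the only member with a p under 0.05 in the authors' deposited table, where its log2 ratio of high over low diet was 0.48 (limma and that table use the same arrays). Slc25a37, mitoferrin-1, rose, with ratios of 0.29, 0.30, 0.19 and 0.39 in the same order (mean 0.29 ± 0.08; adjusted p = 0.0342). In every pair Slc25a37 was above 0 and Slc25a28 below it. A second, dimmer Slc25a37 probe had a mean of -0.09 and did not pass (adjusted p = 0.304).

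The ATP-Mg/phosphate carriers exchange magnesium-bound ATP for phosphate and so set the adenine nucleotide content of mitochondria. Calcium regulates Slc25a23, Slc25a24 and Slc25a25, while Slc25a41 is a short form without the calcium-binding domain. Of the 4 genes 1 passed, where 7.82% of all genes did. Slc25a23 fell, with ratios of -0.32 in H1/L1, -0.11 in H7/L7, -0.45 in H3/L2 and -0.43 in H8/L8 (mean -0.33 ± 0.16, SD, n = 4; limma, adjusted p = 0.0292). Slc25a25 was above 0 in all 4 pairs, at 0.14, 0.03, 0.33 and 0.23 (mean 0.18 ± 0.13; adjusted p = 0.0638), and its second, dimmer probe passed as higher at 0.24 ± 0.18. Slc25a24 was at -0.08 ± 0.11 (adjusted p = 0.374). Slc25a41 was at -0.03 ± 0.05, above background in 2 of 4 low-diet and 3 of 4 high-diet samples.

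The 3 measured carriers of phosphate and of ADP and ATP did not pass, and Slc25a5, another ADP/ATP carrier, was not analysed here. Slc25a3 brings in the phosphate used for ATP, and Slc25a4 and Slc25a31 exchange ADP for ATP. Slc25a3 had ratios of 0.14 in H1/L1, 0.20 in H7/L7, -0.18 in H3/L2 and -0.66 in H8/L8 (mean -0.13 ± 0.39, SD, n = 4; limma, adjusted p = 0.482). The orientations lay on opposite sides of 0, as for the bright Atp5 genes. Slc25a4, at a brightness of 14.11, had ratios of 0.05, -0.02, 0.16 and -0.17 (mean 0.01 ± 0.14; adjusted p = 0.978). The mean ratio of Slc25a31, whose expression is best known from testis, was 0.07 ± 0.07 (adjusted p = 0.355).

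Among the carriers of metabolites, Slc25a11 fell. This gene encodes the oxoglutarate/malate carrier of the malate-aspartate shuttle, and its ratios were -0.55 in H1/L1, -0.60 in H7/L7, -0.02 in H3/L2 and -0.32 in H8/L8 (mean -0.37 ± 0.26, SD, n = 4; limma, adjusted p = 0.0361). H3/L2 lay close to 0 and the others clearly below. Slc25a12, an aspartate/glutamate carrier of the same shuttle, was below 0 in all 4 pairs at -0.24 ± 0.18 but did not pass (adjusted p = 0.166), and its relative Slc25a13 was at -0.0031 ± 0.06. The citrate carrier Slc25a1 (0.05 ± 0.09), the dicarboxylate carrier Slc25a10 (0.03 ± 0.04, above background in 3 of 8 samples) and the carnitine/acylcarnitine carrier Slc25a20 (-0.01 ± 0.06) did not pass. Of the amino acid and glutathione carriers, 0 of 11 passed in limma. Before adjustment 3 of them were under 0.05 (Slc25a12, Slc25a44 and Slc25a29), near the share among all genes, where 5807 of 21757 were.

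Changes were also found in 2 carriers with less settled roles. Slc25a48, linked to choline transport, rose, with ratios of 0.23 in H1/L1, 0.08 in H7/L7, 0.60 in H3/L2 and 0.60 in H8/L8 (mean 0.38 ± 0.27, SD, n = 4; limma, adjusted p = 0.0181), while its dim second probe was at 0.0019. Slc25a35 fell, with ratios of -0.16, -0.17, -0.41 and -0.79 (mean -0.38 ± 0.29; adjusted p = 0.0484). In both genes the pairs with the high diet in Cy5 showed the larger differences. The remaining carriers lay between -0.24 and 0.18 and did not pass.

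Set side by side, the Atp5 median lay below the carrier median in all 4 pairs. The difference was -0.09 in H1/L1, -0.21 in H7/L7, -0.24 in H3/L2 and -0.46 in H8/L8, a mean of -0.25 ± 0.16 (SD, n = 4). For all 16 Atp5 genes against the 6 carriers of the brightest 10% of genes, the difference was -0.16, -0.19, -0.28 and -0.21 in the same order. The 13 Atp5 genes within that brightest 10% had medians of 0.14, -0.02, -0.26 and -0.50, against 0.09, -0.02, 0.07 and -0.25 for these carriers. Within the brightest 10%, the Atp5 median was thus lower only in H3/L2 and H8/L8, the pairs with the high diet in Cy5. The medians of all 16 Atp5 genes were -0.07, -0.21, -0.21 and -0.46. The medians of the proximal tubule markers were -1.07, -0.17, -0.81 and -0.17 in the same order. A link between them and the Atp5 medians was not tested.

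**Figure D3:**
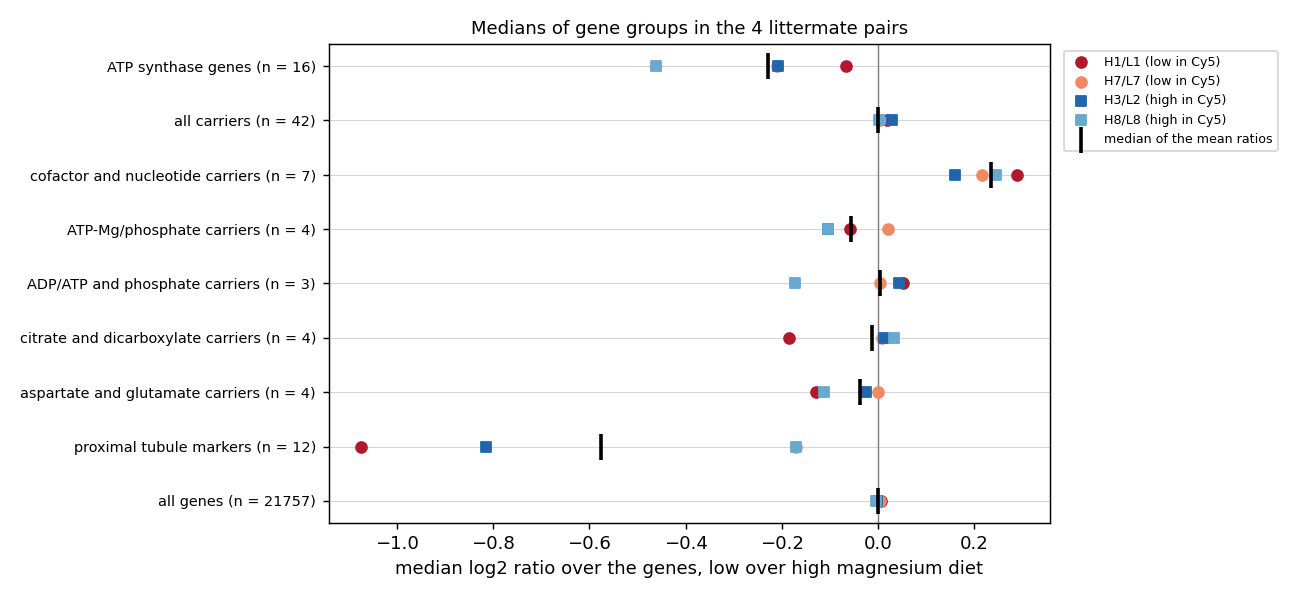
Median log2 ratio of the low over the high magnesium diet (horizontal axis) in each of the 4 pairs (points) and of the mean ratios (bars), for ATP synthase genes, carriers by role, proximal tubule markers and all genes. The Atp5 medians reach from -0.46 to -0.07 and those of the cofactor carriers from 0.16 to 0.29, while those of all genes stay between -0.0039 and 0.0078.

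How far the 2 dye orientations agreed depended on brightness. Across the 58 members the ratios of pairs with the same orientation had a Pearson r of 0.75 (low diet in Cy5) and 0.85 (high diet in Cy5), and those of opposite orientation of 0.08 to 0.17. Over all 21757 genes the same values were 0.62 and 0.57 within an orientation and 0.17 to 0.39 across. Genes share arrays and dyes, so this is a description. The difference between the orientations had a median of 0.98 for the 9 Atp5 genes with a brightness of 14 or more. The same held for the array as a whole, where the 119 genes this bright had a median size of difference of 0.83 and the 21638 dimmer ones of 0.0984. Of the 47 dimmer members 1 differed by over 0.5 in size.

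**Figure D4:**
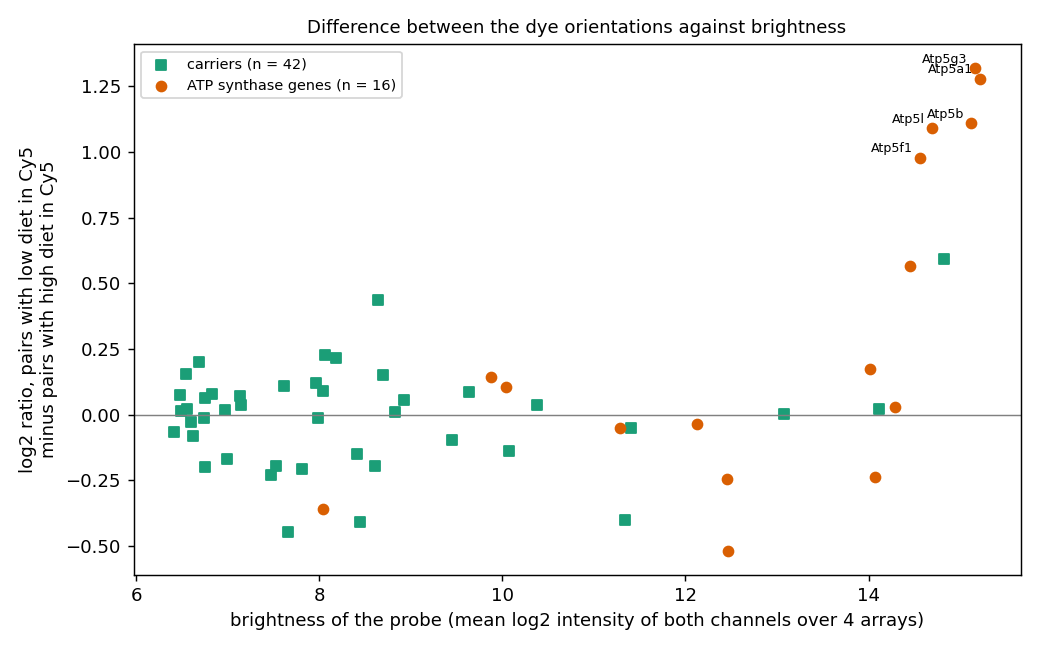
Difference in log2 ratio between the pairs with the low diet in Cy5 and those with the high diet in Cy5 (vertical axis) against the brightness of the probe (horizontal axis, log2 intensity) for 16 ATP synthase genes (circles) and 42 carriers (squares). Atp5a1, Atp5b, Atp5f1, Atp5g3 and Atp5l stand at 0.98 to 1.32, at the bright end of the axis.

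Few other genes of ATP synthase assembly and of exchange across the mitochondrial membranes passed. The measured ones had a median brightness of 10.32, against 7.34 for all genes, and 23.7% of the brightest 10% of genes passed. Before adjustment 12 of the 27 measured genes had a p under 0.05 in limma, where 5807 of all 21757 genes did. Of 30 listed genes 27 were measured, of which 1 rose and 1 fell (limma; 7.41%, against 7.82% of all genes), and their median was -0.0082. The one that fell was 2010107E04Rik, a small protein that copurifies with ATP synthase, with ratios of -0.21 in H1/L1, -0.50 in H7/L7, -0.41 in H3/L2 and -0.58 in H8/L8 (mean -0.42 ± 0.16, SD, n = 4; adjusted p = 0.0336). The one that rose was the uncoupling protein gene Ucp2, at 0.17, 0.20, 0.19 and 0.13 (mean 0.17 ± 0.03; adjusted p = 0.0433). Atpif1, which encodes the inhibitor of ATP synthase, was below 0 in all 4 pairs at -0.33 ± 0.15 and did not pass (adjusted p = 0.0622). The outer membrane channels Vdac1, Vdac2 and Vdac3 were at 0.10 ± 0.08, 0.0042 ± 0.15 and 0.02 ± 0.12, and Mrs2, the magnesium channel of the inner membrane, at -0.35 ± 0.25 (adjusted p = 0.125).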

How the data were processed

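The deposited scans hold linear intensity per spot and channel, not background subtracted (scanner software: not given in the sources used here). Channel 1 was taken as Cy5, which the labels list first. A deposited table of the authors holds log2 ratios of channel 1 over channel 2, with a median per array between -0.0038 and 0.0047 and unstated normalization. Another deposited table, from a maanova test per the file headers, gives the authors' log2 ratio and p-value per probe; its direction, high over low diet, was found from the values, and any adjustment of its p-value is unstated.

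From the scans, mean signals were corrected by normexp (offset 50) and log2 ratios normalized within arrays by loess, with 5791 control spots at weight 0. The turned ratios (low over high diet) were fitted with limma 3.58.1 in R 4.3.3, with terms for diet and dye, which leaves 2 residual and 2.68 prior degrees of freedom; p-values are adjusted by the Benjamini-Hochberg method over 39429 probes. The number of arrays limits the precision. Printed SDs are over the 4 ratios turned to low over high diet and include the dye effect. A channel was above background if its signal minus background was over percentile 99 of a dim control probe (604 spots), and saturated at a median of 65000 or more. Summed marker levels use channels equalised by the Aquantile method. The code was tested on simulated ratios.

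Members and gene lists were chosen with earlier results of these data known. Named were members past the threshold, with saturated spots, with the 5 largest or smallest ratios per family, carriers of adenine nucleotides, phosphate and ATP-Mg, and pathway genes past the threshold; further genes, named to complete a role, were chosen after their values were seen. The files name no genome build, and promoter sequences are RefSeq's (GRCm38.p6). Probe sequences were not used here, so cross-hybridisation with pseudogenes, which RefSeq lists for several Atp5 genes, was not tested.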

Additional observations from a re-analysis of the deposited data

How the results depend on the processing

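The Atp5 median stayed between -0.27 and -0.19 under 14 alternatives, and its difference from the carrier median between -0.30 and -0.20, but calls were less stable. Past the threshold were 0 Atp5, 1 carrier and 0 pathway genes with plain background subtraction, 0, 0 and 0 with scaling between arrays, and 2, 5 and 1 without a dye term. Averaging the probes of a gene gave 4 pathway genes. Leaving out 1 pair gave 0 to 4 Atp5, 0 to 6 carrier and 0 to 1 pathway genes, with fewer samples behind each fit. Over all probes the count of 2296 became 279 with plain subtraction, 0 with scaling, 824 without a dye term and 83 to 863 with 1 pair left out, and over 21757 genes 1701 became 1194 with probes averaged. The carrier median, near 0, became 0.0290 with median centring, -0.0016 with scaling, 0.0248 without the dimmest probes, 0.0147 with the deposited ratios, -0.0035 with probes averaged and -0.0008 to 0.0205 with 1 pair left out. Signs turned for members near 0 or saturated. Slc25a41 became 0.0101 with plain subtraction, 0.0021 without background correction, 0.0049 with centring and 0.0138 with the deposited ratios. Slc25a4 became -0.06 with centring, -0.0004 with scaling and -0.0787 to 0.089 with 1 pair left out. Atp5a1 became -0.0876 with centring and -0.1186 to 0.1264 with 1 pair left out, over which Atp5h ranged from -0.1799 to 0.0507 and Atp5sl from -0.0558 to 0.0186. Atp5sl became 0.0011 and Atp5g3 0.0552 with scaling. With saturated spots missing Atp5g3 stood at 0.5794, which is its ratio in H7/L7, the only pair then left. Diet and dye cannot be told apart in that value. The causes of the other sign changes were not tested. Dim carriers, 8 of them below background in a sample, limit what could be seen.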
